A study of Rattus norvegicus with 9 samples.

Results

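Cartilage progenitor cells at passage 9 (P9) were compared with the same kind of cells at passage 3 (P3). The comparison used 6 of the 9 libraries of the series, all 3 labelled P9 and all 3 labelled P3. The cells were wild-type rat primary cultures from condylar cartilage, grown in vitro to the named passage, and P3 was the study's control for P9, its model of replicative senescence. The other 3 libraries, of passage 3 cells under flow fluid shear stress, entered no value below except an alternative fit with a shared estimate of spread. The labels do not say if replicate libraries were drawn from different animals or culture dishes, and every p therefore reflects the scatter of these libraries alone. Nor do they say if the P3 and P9 cells came from the same isolates. An effect of passage therefore cannot be told apart from a difference between isolates or cultures.

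Cartilage progenitor cells are mesenchymal cells that can be expanded in culture and can form cartilage. Serial passage on plastic is known to flatten and spread such cells, to shift their matrix and cytoskeleton, and in the end to stop their division. Contractile filaments pull on focal adhesions, the integrin-based contacts with the matrix, and the transcription factors SRF and YAP respond to that tension.

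The labelled cell type was checked against chondrocyte markers. Acan, which encodes the proteoglycan aggrecan, was at 128, 135 and 122 FPKM (counted fragments corrected for the length of a gene and the depth of a library) in P3 replicates 1 to 3 and at 609, 576 and 499 FPKM in P9. Sox9, the main chondrogenic transcription factor, was at 4.72, 4.79 and 4.06 in the P3 libraries against 6.37, 8.0 and 5.01 FPKM at P9 (log2 fold change 0.42, adjusted p = 0.117). Col2a1, the collagen that defines differentiated cartilage, was at 1.06, 0.703 and 0.717 in the P3 libraries against 0, 0.0289 and 0.191 FPKM at P9. It was below the filter, and a fit with no filter called it lower (adjusted p = 0.0121). Of 15 chondrocyte markers 11 stayed below the filter, and Matn1 and Cnmd were at 0 in all 6 libraries.

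Depth was even, at 13264930 to 15323790 counted fragments per library. Of 34267 genes, 13693 were at 0 in all 6 libraries, and 12405 had at least 1 FPKM in at least 3 of the 6 and were tested. A gene under 1 FPKM in all 3 libraries of a group was tested only if it reached 1 FPKM in all 3 of the other. Calls of such genes, in either direction, therefore rest on a difference that the filter already required. Mitochondrial genes took 2.12 to 2.32% of fragments in P3 and 2.31 to 2.56% in P9, and the 10 most abundant genes took 14.7 to 15.8% in P3 and 12.4 to 13.1% in P9. P9 replicate 1 stood apart within its group: across genes its Pearson r was 0.965 and 0.959 with the other P9 libraries, which correlated at 0.982, and the P3 libraries correlated at 0.980 to 0.984 (genes are not independent replicates). It was also the farthest P9 library from P3.

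A broad part of the transcriptome differed at passage 9, in both directions. Of the tested genes 19.9% were called with limma at an adjusted p under 0.05, 1379 higher at P9 (11.1% of those tested) and 1087 lower (8.76%), out of 4185 with an unadjusted p under 0.05. The median log2 fold change over all tested genes was 0.00 and the median size of a change 0.22, on the scale of log2(FPKM + 1), which understates the ratio of genes near 1 FPKM. Changes of at least 1 on that scale were called for 419 genes higher and 343 lower, and changes of at least 3 for 22 higher and 12 lower. At the other end, the 95% confidence interval of 6588 genes (53.1%) lay wholly within 1.5-fold in either direction. In bulk RNA, a change in the cells of a type and a change in RNA per cell cannot be told apart.

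The number of calls depended on single libraries. Leaving out P3 replicate 1 gave 1302 calls, P3 replicate 3 gave 1488, P9 replicate 2 gave 1622, and P9 replicate 1, the library that stood apart, gave 2819. Of the 2466 calls, 1212 (692 higher, 520 lower) held without each library in turn, and 944 held under all 12 alternative fits to the same genes. The genes named below as having risen or fallen were called without each of the 6 libraries unless a value says otherwise. Those not called with the spread estimated over all 9 libraries, named the 9-library fit below, are given with its adjusted p. Counts of list members below stand against 11.1% called higher and 8.76% called lower over all tested genes.

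**Figure D1:**
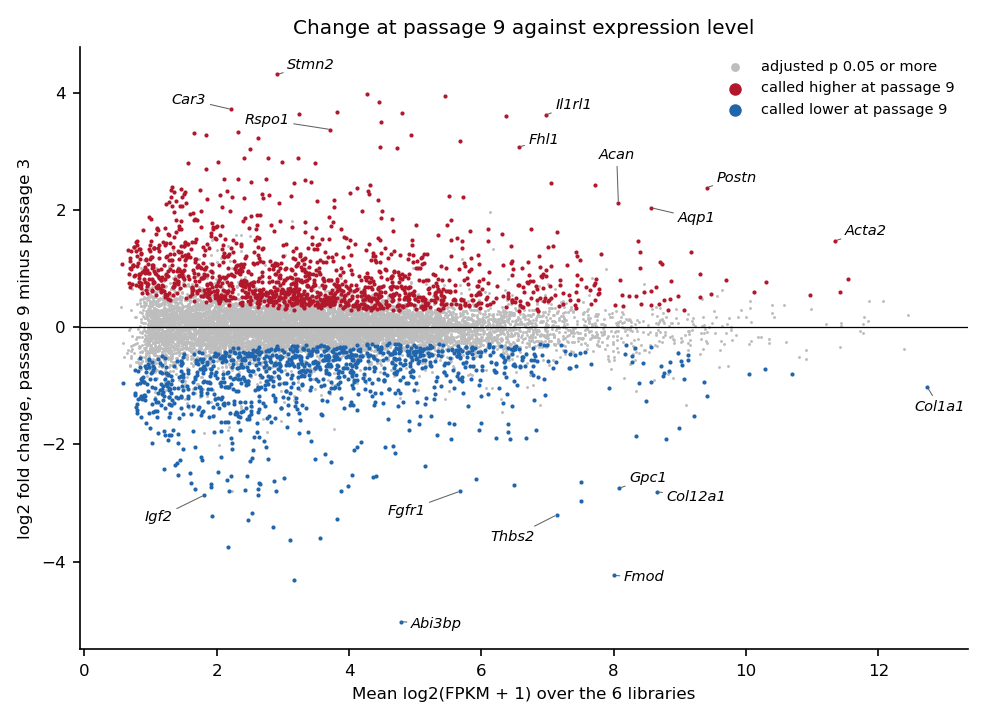
Each point is 1 of the 12405 tested genes, with its mean log2(FPKM + 1) over the 6 libraries on the x axis and its log2 fold change, P9 minus P3, on the y axis. Red points (1379) were called higher and blue points (1087) lower at an adjusted p under 0.05, and calls appear at every expression level.

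Calls came from every level of expression. The share called was 19.1% among genes with a mean under 2 FPKM and 25.6% above 200 FPKM. Every chromosome with at least 100 tested genes had calls in both directions, with median log2 fold changes from -0.04 on chromosome 11 to 0.06 on chromosome 4. Chromosome 4 had the largest excess of rises, 111 higher and 47 lower of 692 tested genes, and the median of its genes against the mean of P3 was 0.05, 0.09 and 0.05 in P9 replicates 1 to 3.

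The P9 libraries did not move by the same amount. P9 replicate 3 was the P9 library nearest to P3 in 746 of 1379 genes called higher and 536 of 1087 called lower. P3 replicate 2 was the P3 library nearest to P9 in 754 and 499 of them. Several genes that were nearly lost in P9 replicates 1 and 2 kept some expression in replicate 3. Abi3bp, a matrix protein, was at 2.48, 2.70 and 7.78 FPKM in P9 against 155, 134 and 185 FPKM in P3 (log2 fold change -5.03, adjusted p = 0.000404). Sp7, the osteoblast factor osterix, was at 0.361, 0.404 and 2.78 FPKM in P9 against 18, 17.2 and 14.2 FPKM in P3. Both come from the ranking of the largest falls, which took only genes whose groups did not overlap. The median SD of a gene on the log2 scale was 0.107 in P3 and 0.172 in P9.

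The genes that rose the most encoded proteins of several unrelated classes, among them signalling, calcium storage and cytoskeletal proteins. Il1rl1, the receptor of interleukin 33, was at 32.9, 43.9 and 29 in the P3 libraries against 551, 459 and 334 FPKM at P9 (log2 fold change 3.62, SE 0.22, adjusted p = 0.000314). Rspo1, a secreted enhancer of Wnt signalling, was at 3.65, 3.40 and 2.34 in the P3 libraries against 34.7, 48.4 and 42.2 FPKM at P9 (log2 fold change 3.37, adjusted p = 0.000221). Cadm4, a cell adhesion molecule of the immunoglobulin family, was at 24, 28.7 and 17.4 in the P3 libraries against 276, 351 and 248 FPKM at P9 (log2 fold change 3.60, adjusted p = 0.000308). These genes come from a ranking that took only genes whose groups did not overlap. Anxa3, a calcium-dependent membrane-binding protein, had nearly equal values in the P9 libraries, 31.7, 32.3 and 33.4 FPKM, against 1.72, 2.48 and 1.04 FPKM in P3. Nrep, a small protein of regenerating neurons and of myofibroblasts, was less even, at 5.62, 5.5 and 10.3 in the P3 libraries against 150.3, 126 and 49.9 FPKM at P9 (log2 fold change 3.66, adjusted p = 0.00183).

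Other large rises were those of Ptprn, a membrane protein of secretory granules, from 6.08 ± 2.82 to 74.6 ± 2.51 FPKM (SD, n = 3 here and below), and of Susd5, from 17.1 ± 7.22 FPKM to 153 ± 8.09. Mmd rose by 3.08 on the log2 scale and Glb1l2, a relative of lysosomal beta-galactosidase, by 3.33. Glb1l2 was under 1 FPKM in every P3 library and passed the filter only through the P9 libraries. The LIM domain proteins Fhl1 and Lmcd1, both abundant in muscle, rose by 3.07 and 3.05 on the log2 scale, with values of 32.3, 46.8 and 20.8 in the P3 libraries against 369, 251 and 222 FPKM at P9 for Fhl1. Stmn2, Pln, Serpinb9, Osr1, Car3 and Car9 had the 6 largest rises, log2 fold changes of 3.67 to 4.32.

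The largest falls were led by secreted and matrix proteins. Beside Abi3bp, they included Pla2g2a, a secreted phospholipase, and the matrix genes Fmod, Lum and Thbs2, described with the matrix below. Sfrp2, a secreted Wnt antagonist, fell by 3.60 on the log2 scale, and its level in P3 itself ranged widely, at 49.0, 17.7 and 73.8 FPKM. Anxa8, another annexin, moved against Anxa3, with 43.7, 36.8 and 48.3 in the P3 libraries against 3.04, 3.43 and 4.14 FPKM at P9 (log2 fold change -3.27, adjusted p = 0.000185). Hopx, a homeodomain protein without DNA binding, had some of the tightest values of all, 18.9, 17.7 and 19.1 in the P3 libraries against 1.77, 1.71 and 1.97 FPKM at P9 (log2 fold change -2.80, adjusted p = 0.000104). Dio3, the enzyme that inactivates thyroid hormone and is annotated in the deposited table as a pseudogene, was at 23.1, 23.5 and 21.1 in the P3 libraries against 1.18, 0.953 and 1.5 FPKM at P9 (log2 fold change -3.42, adjusted p = 0.000104). Fgfr1, a main receptor of fibroblast growth factors, went from 134 ± 11.7 FPKM to 19.2 ± 7.34 (log2 fold change -2.80, adjusted p = 0.000622). Ccdc3, Cyp4b1, Dynap and Cadm1 fell by 2.77 to 3.29 on the log2 scale. Cadm1 thus moved against its relative Cadm4. The uncharacterised gene AABR07030544.1 went from 15.8 ± 3.70 FPKM to 1.3 ± 0.352. Fam180a went from 39.3 ± 13.7 FPKM to 5.86 ± 5.48. Fam180a was not called in the 9-library fit (adjusted p = 0.0501).

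**Figure D2:**
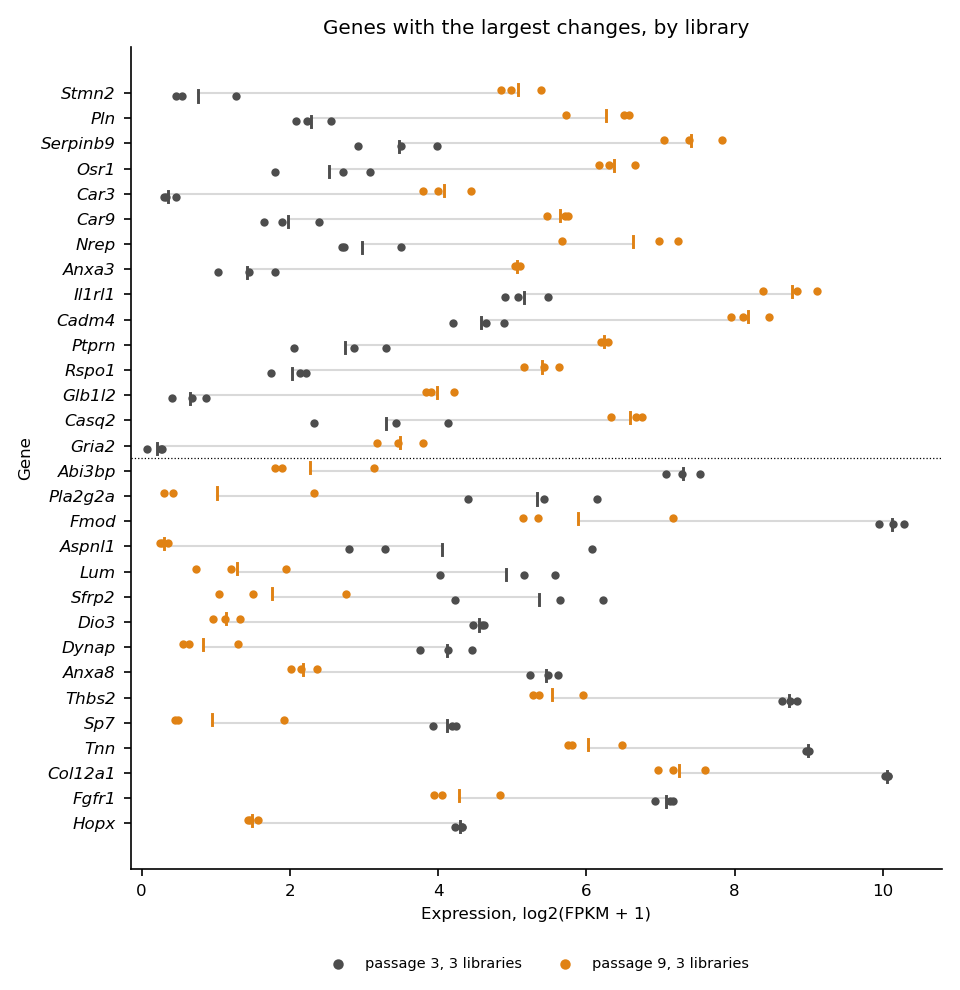
Each row is a gene, and each point is 1 library on a log2(FPKM + 1) axis, grey for P3 and orange for P9, with a vertical tick at the mean of 3 libraries. The 15 largest rises stand above the dotted line and 15 of the largest falls below it. The ranking took only genes whose groups did not overlap, so the gap in each row was required.

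A few genes passed from near silence to clear expression or the reverse. All of them were under 1 FPKM in every library of 1 group and passed the filter only through the other. Each could thus be tested only because the groups differed. Below 0.5 FPKM in every P3 library and at or above 5 FPKM in every P9 library were Car3, Gria2, Gzmbl3 and Serpinb6b. Gria2, a subunit of glutamate-gated channels, was at 0.193, 0.212 and 0.0494 in the P3 libraries against 9.98, 8.06 and 12.9 FPKM at P9 (log2 fold change 3.28, adjusted p = 0.000259). Gzmbl3, a granzyme-like serine protease, had no fragment in P3 and 327 fragments in P9, 6.70, 11.9 and 8.79 FPKM. With 3 fragments allowed per P3 library, at most 0.276 FPKM for this gene, it was at least 33.1-fold higher. Serpinb6b, a serpin that inhibits proteases inside the cell, was at 0.0585, 0.192 and 0.120 in the P3 libraries against 6.55, 7.42 and 6.62 FPKM at P9. Granzymes and serpins of this clade are families of close copies, between which the counting could have divided fragments. In the other direction stood Tspan11, a tetraspanin, at 8.08, 5.04 and 9.58 in the P3 libraries against 0.136, 0.173 and 0.376 FPKM at P9, and the growth factor gene Igf2, at 8.85, 6.52 and 10.5 in the P3 libraries against 0.260, 0.337 and 0.307 FPKM at P9 (log2 fold change -2.87, adjusted p = 0.000314). Aspnl1, which the annotation names as a relative of asporin, also met the rule, but 1 P3 library held most of its level (66.8, 5.95 and 8.71 FPKM) and the call was lost with 1 library left out (adjusted p = 0.0559 without P9 replicate 2).

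The composition of the RNA shifted from collagen to actin-bundle genes. Col1a1, the main chain of collagen I, took 2.14% of summed FPKM in P3 and 1.05% in P9, and was the most abundant gene at P3. Its values were 9759, 10290 and 9283 in the P3 libraries against 4510.2, 5122 and 4781 FPKM at P9 (log2 fold change -1.03, adjusted p = 0.00242), the largest loss in FPKM of any called gene. With no filter on low genes Col1a1 was not called (adjusted p = 0.217). Fmod, Col3a1, Col12a1, Lox, Col8a2, Col11a1, Col5a2 and Gpc1, a cell surface heparan sulfate proteoglycan, came next. Gpc1 went from 709.9 ± 119 FPKM to 111 ± 48.4 (log2 fold change -2.75, adjusted p = 0.00170). Timp2, an inhibitor of metalloproteinases, was at 1396 ± 13.6 at P3 against 813 ± 161 FPKM at P9 and lost its call where a library was left out (adjusted p = 0.0602 without P3 replicate 1, 0.0502 without P3 replicate 2 and 0.0551 without P3 replicate 3). Col3a1 was not called in the 9-library fit (adjusted p = 0.0732).

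The gains were led by Acta2, the smooth muscle actin that also marks myofibroblasts, which took 0.342% of summed FPKM in P3 and 0.951% in P9, and by Tagln, an actin-binding protein of smooth muscle, with 0.490% and 0.861%. The genes next in order were Postn, Fn1, S100a11, Mfge8, Aqp1, Myl9, Htra1 and Myl12a. Mfge8, a secreted bridge between dying cells and phagocytes, went from 967 ± 99.8 FPKM to 1647 ± 161 (log2 fold change 0.77, adjusted p = 0.00703). Aqp1, a water channel, was at 189, 181 and 188 in the P3 libraries against 808, 807 and 693 FPKM at P9 (log2 fold change 2.04, adjusted p = 0.000220). Fn1, fibronectin, went from 2231 ± 90.2 FPKM to 3375 ± 168, with a call lost where a library was left out (adjusted p = 0.0631 without P3 replicate 1 and 0.0525 without P3 replicate 3). S100a11, a calcium-binding protein, went from 1658 ± 20.8 FPKM to 2433 ± 303, with adjusted p = 0.0239, and 0.110 without P3 replicate 1, 0.0744 without P3 replicate 2, 0.0824 without P3 replicate 3 and 0.0662 without P9 replicate 2. Fn1 and S100a11 were not called in the 9-library fit (adjusted p = 0.0837 and 0.265). Tagln was not called with no filter on low genes (adjusted p = 0.117).

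Most genes of the contractile filaments rose. Of 29 tested genes of contractile filaments 19 were higher and none was lower, against a background of 11.1% higher; 14 held without each library in turn and 10 under all 12 alternative fits. Their median log2 fold change was 0.63. Tpm1, a tropomyosin that lines actin filaments, was at 242, 233 and 236 in the P3 libraries against 448, 531 and 463 FPKM at P9 (log2 fold change 1.01, adjusted p = 0.000933). Myl9, the regulatory light chain of myosin, was at 365, 399.7 and 348 in the P3 libraries against 712, 1154 and 886 FPKM at P9 (log2 fold change 1.28, adjusted p = 0.00366). Lmod1, a nucleator of actin filaments in smooth muscle, rose by 1.57 on the log2 scale, and Myh11, the myosin heavy chain of smooth muscle, by 2.24, from 21.5 ± 9.79 FPKM to 101 ± 28.2. Of the members found in most cells, Myl12a rose by 0.61 on the log2 scale, and the ubiquitous actin Actg1 was at 1343 ± 31.8 at P3 against 1740.3 ± 149 FPKM at P9 (log2 fold change 0.37, adjusted p = 0.0565). The actin genes are near-identical copies, so fragments could have been divided between them. Myh11 was not called in the 9-library fit (adjusted p = 0.0654).

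Genes of muscle calcium handling also changed. Of 23 tested members 10 were higher and 3 lower (median log2 fold change 0.59). Casq2, the calcium store protein of cardiac muscle, was at 9.81, 16.6 and 3.99 in the P3 libraries against 107, 101 and 79.2 FPKM at P9 (log2 fold change 3.29, adjusted p = 0.00262). Mrvi1, a partner of the calcium release channel in smooth muscle, went from 2.57 ± 1.0 FPKM to 24.7 ± 3.83 (log2 fold change 2.88, adjusted p = 0.000502). Slc8a1, the sodium-calcium exchanger, and Jph2, a protein that ties the calcium store to the cell membrane, rose by 1.52 and 1.08 on the log2 scale. The release channels went opposite ways. Itpr1 was at 19.8 ± 2.55 at P3 against 32.6 ± 3.88 FPKM at P9 (log2 fold change 0.69, adjusted p = 0.0103) and Itpr3 at 18.8 ± 3.02 at P3 against 8.69 ± 0.683 FPKM at P9 (log2 fold change -1.02, adjusted p = 0.00280). The calcium pumps of the cell membrane did too, with Atp2b4 higher by 1.48 on the log2 scale and Atp2b1 at a log2 fold change of -0.79. Itpr1 was not called in the 9-library fit (adjusted p = 0.0694).

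Focal adhesion genes had a like share of rises, 18 of 27 with 1 lower (median log2 fold change 0.66); 14 held without each library in turn and 12 under all 12 alternative fits. Pxn, the scaffold paxillin, was at 12.4, 13.7 and 12.1 in the P3 libraries against 27.6, 33.9 and 31.8 FPKM at P9 (log2 fold change 1.22, adjusted p = 0.000665). Lims2 and Fblim1, adaptors between integrins and actin, rose by 1.87 and 2.21 on the log2 scale, and Zyx, zyxin, by 0.86. Cav1, the coat protein of caveolae, went from 79.6 ± 9.99 FPKM to 253 ± 64.1 (log2 fold change 1.63, adjusted p = 0.00242).

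Of 15 tested integrin chains 6 were higher and 3 lower (median log2 fold change 0.02). The laminin receptor chains Itga7 and Itga3 rose by 2.21 and 1.12 on the log2 scale, the collagen receptor chain Itga1 by 1.23, and Itga8 and Itga4, chains that bind fibronectin, by 1.64 and 1.37. Itgb3, which pairs with the alpha v chain, was at 8.77, 7.46 and 10.1 in the P3 libraries against 0.644, 0.384 and 0.388 FPKM at P9 (log2 fold change -2.73, adjusted p = 0.000251). Itga10, the collagen receptor chain typical of chondrocytes, went from 3.10 ± 0.335 FPKM to 0.493 ± 0.261 (log2 fold change -1.47, adjusted p = 0.00172), and Itga9 fell by 1.21 on the log2 scale. Itgb3 and Itga10 passed the filter only through the P3 libraries and so could be tested only because they were higher there. The most abundant chain, Itgb1, was at 894 ± 76.5 at P3 against 868 ± 138 FPKM at P9, with a 95% interval of the log2 change from -0.39 to 0.28. Itga10 was not called in the 9-library fit (adjusted p = 0.0557).

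Of 33 small GTPases of the cytoskeleton, with their regulators and effectors, 12 were higher and 1 lower (median log2 fold change 0.17). The rises numbered 7 when P3 replicate 3 or P9 replicate 2 was left out. Rnd3 and Rhoj, atypical members of that family, rose by 0.94 and 0.88 on the log2 scale, and Rhoa, which drives contraction, was at 382 ± 5.4 at P3 against 352 ± 21.1 FPKM at P9 (log2 fold change -0.12, adjusted p = 0.387). Of 25 targets of YAP and SRF 11 were higher and 1 lower (median log2 fold change 0.29), and 9 of the rises held under all 12 alternative fits. Ankrd1, Tgfb2, Fhl2 and Edn1, the precursor of the vasoconstrictor endothelin 1, rose by 2.69, 1.59, 1.05 and 1.41 on the log2 scale, while the standard targets Ccn1 and Ccn2 were at 408 ± 46.9 at P3 against 449 ± 58.7 FPKM at P9 and at 2711 ± 340.2 at P3 against 2817 ± 56.3 FPKM at P9, neither called (adjusted p = 0.530 and 0.777). Mrtfa, the actin-regulated partner of SRF, rose from 13 ± 1.1 FPKM to 24.4 ± 0.954, and Srf was at 18.4 ± 1.0 at P3 against 30.3 ± 5.05 FPKM at P9 (adjusted p = 0.0132, but 0.0548 without P3 replicate 3 and 0.0513 without P9 replicate 2).

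SRF binds a DNA element named the CArG box, and the 250 bases before the RefSeq start were searched for it on both strands, in the GRCr8 build, for the 7970 tested genes with 1 start in the table. It was present in 1.51% of all 24206 promoters, 1.14% of those of tested genes, 3.04% (27 of 887) of those of genes called higher and 0.719% (5 of 695) of those of genes called lower. Among tested contractile genes 2 of 20 had a match in these 250 bases, Actg1 and Cnn2, and neither was called. Elements outside this window, or with letters other than the pattern, were not searched. A gene without a match may therefore still have such an element. Members of the cytoskeletal lists that were called higher and had a match are shown in part, 100 bases each, to give the match in its surroundings. A part of SRF in their rise was not tested. Acta1 is shown too and comes from the skeletal muscle markers. The match is in capitals, the pattern is its own reverse complement and so matches on both strands, and the sequences are from RefSeq.
Fblim1 (chr5:159196822-159196921, minus strand): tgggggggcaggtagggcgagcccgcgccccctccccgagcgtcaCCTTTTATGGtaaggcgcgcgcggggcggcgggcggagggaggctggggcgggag
Rnd3 (chr3:55998586-55998685, minus strand): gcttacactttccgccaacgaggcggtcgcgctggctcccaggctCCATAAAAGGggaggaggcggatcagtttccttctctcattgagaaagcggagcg
Rhoj (chr6:99771133-99771232, plus strand): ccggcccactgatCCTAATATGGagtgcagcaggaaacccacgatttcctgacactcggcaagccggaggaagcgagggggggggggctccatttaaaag
Srf (chr9:21923960-21924059, plus strand): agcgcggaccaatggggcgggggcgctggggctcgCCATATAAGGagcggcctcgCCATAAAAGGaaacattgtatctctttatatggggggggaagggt
Acta1 (chr19:68784234-68784333, minus strand): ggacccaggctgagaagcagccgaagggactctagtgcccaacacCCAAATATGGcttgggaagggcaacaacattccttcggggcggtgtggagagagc

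The match began 60 bases before the start in Fblim1, 146 in Rnd3, 237 in Rhoj and 94 in Acta1, and the pair in Srf began at 81 and 61. Acta1, skeletal actin, was at 7.64, 13.8 and 2.45 in the P3 libraries against 42.5, 35.1 and 38.6 FPKM at P9 (log2 fold change 2.38, adjusted p = 0.0140). A match is a description of these letters and does not show binding. The motif GGAATG of TEAD, the DNA-binding partner of YAP, was in 9.81% of promoters of tested genes and 11.2% of those called higher (11.6% of all).

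**Figure D3:**
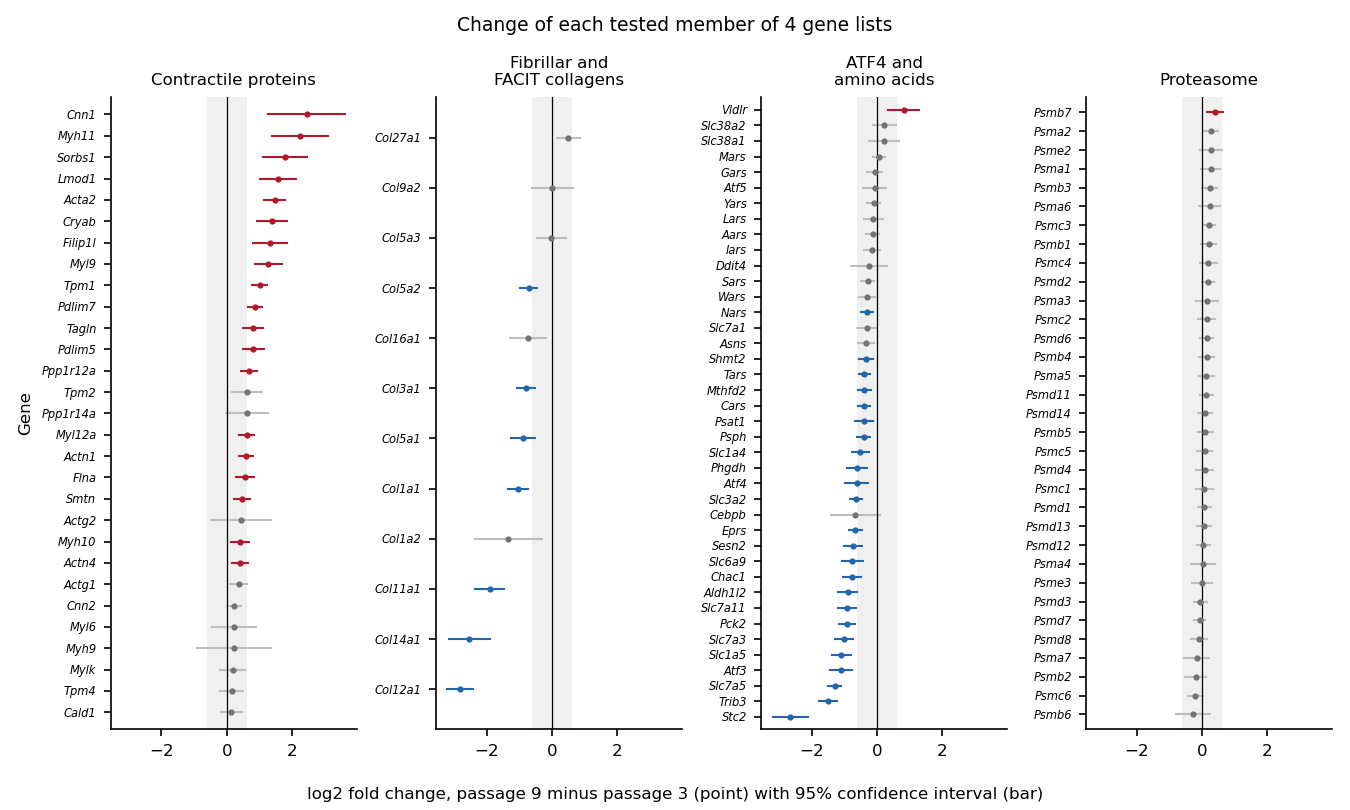
Each point is the log2 fold change, P9 minus P3, of 1 tested member of the list named above the panel, with a bar for its 95% confidence interval, red for members called higher, blue for members called lower and grey for the others. The shaded band marks changes within 1.5-fold: 19 of 29 contractile genes were called higher, 7 of 12 fibril collagens and 24 of 40 ATF4 genes lower, and 30 of 33 proteasome intervals lay wholly inside the band.

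The collagen matrix went the other way. Of 12 tested fibrillar and fibril-associated collagens 7 were lower and none higher, against a background of 8.76% lower (median log2 fold change -0.84). All 7 were called without each library in turn. Together the list took 3.79 ± 0.203% of summed FPKM in P3 and 1.80 ± 0.0322% in P9. Col12a1 and Col14a1, which bind to the surface of fibrils, fell the most, with log2 fold changes of -2.81 and -2.52. Col12a1 was at 1073, 1041 and 1072 in the P3 libraries against 143, 124 and 194 FPKM at P9. The minor fibril chains Col11a1, Col5a1 and Col5a2 fell, with log2 fold changes of -1.90, -0.88 and -0.71, as did Col3a1 (-0.80). Col1a2, the partner chain of Col1a1, ranged within P3 from 522 to 1741 FPKM and was not called (991 ± 656 at P3 against 349 ± 84.7 FPKM at P9, adjusted p = 0.0749).

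Of 10 small leucine-rich proteoglycans, which coat collagen fibrils, 6 were lower and none higher (median log2 fold change -1.07). Fmod was at 1129.8, 983 and 1249 in the P3 libraries against 34.4, 39.6 and 143 FPKM at P9 (log2 fold change -4.24, adjusted p = 0.00195), Lum at 34.9, 15.2 and 46.7 in the P3 libraries against 0.655, 1.3 and 2.86 FPKM at P9 (log2 fold change -3.63, adjusted p = 0.00236), and Tsku fell by 1.84 on the log2 scale. Dcn, decorin, was at 21.4, 7.21 and 31.5 in the P3 libraries against 1.06, 1.51 and 3.82 FPKM at P9, with a call lost where a library was left out (adjusted p = 0.0593 without P3 replicate 1 and 0.0565 without P9 replicate 2). Bgn, the most abundant of them, was at 1180.0 ± 71.1 at P3 against 1561 ± 379.6 FPKM at P9 (log2 fold change 0.38, adjusted p = 0.202).

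Among 18 cartilage matrix genes 7 were lower and 2 higher (median log2 fold change -0.25), with the rises at 1 when P3 replicate 1, 2 or 3 or P9 replicate 2 or 3 was left out. Acan rose by 2.12 on the log2 scale (adjusted p = 0.000220), with no overlap in the values given above. Cilp, Xylt1 and Ucma, a matrix protein of the cartilage intermediate layer, the enzyme that starts glycosaminoglycan chains and a secreted protein of young chondrocytes, fell, with log2 fold changes of -1.60, -1.77 and -1.23. Comp, a cartilage matrix protein, went from 6.87 ± 0.446 FPKM to 1.71 ± 1.21 (log2 fold change -1.62, adjusted p = 0.00823). Has2, which makes hyaluronan, went from 10.6 ± 0.847 FPKM to 6.89 ± 0.496 (log2 fold change -0.55, adjusted p = 0.00905). Prg4, lubricin of the joint surface, was at 6.19, 0.798 and 9.28 in the P3 libraries against 0, 0.0206 and 0.0778 FPKM at P9 and stayed below the filter. Cilp, Comp and Ucma were not called in the 9-library fit (adjusted p = 0.281, 0.0663 and 0.276).

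The matricellular genes split, 5 higher and 8 lower of 20 (median log2 fold change -0.15); 2 of the rises and 5 of the falls held without each library in turn. Postn, periostin, was at 297, 329.5 and 267 in the P3 libraries against 1817, 1626 and 1262 FPKM at P9 (log2 fold change 2.38, adjusted p = 0.000366) and Ccn3 went from 23.4 ± 1.26 FPKM to 113 ± 14 (log2 fold change 2.21, adjusted p = 0.000220). Thbs2 was at 427, 396 and 458 in the P3 libraries against 38, 39.9 and 61.3 FPKM at P9 and Tnn, tenascin N, at 515, 499 and 509 in the P3 libraries against 52.9, 55.2 and 88.6 FPKM at P9, log2 fold changes of -3.21 and -2.97. Ccn5 fell by 1.65 on the log2 scale. Thbs1, the most abundant gene of the list, was at 3567 ± 455 at P3 against 3857 ± 580.2 FPKM at P9 (log2 fold change 0.11, adjusted p = 0.682). The rises numbered 2 when P3 replicate 1 or 3 was left out and 3 when P9 replicate 1 or 2 was left out, and the falls 5 when P3 replicate 1 was left out.

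Of 16 basement membrane genes 5 were higher and 4 lower (median log2 fold change 0.02), the latter 2 when P3 replicate 1, 2 or 3 or P9 replicate 2 was left out. Lama5 was at 0.993, 1.93 and 0.401 in the P3 libraries against 22.1, 19.1 and 13.6 FPKM at P9 (log2 fold change 3.23, adjusted p = 0.000780) while Lama2, the laminin chain of muscle, was at 4.76, 4.11 and 5.41 in the P3 libraries against 0.618, 0.484 and 0.998 FPKM at P9 (log2 fold change -1.77, adjusted p = 0.000815). Lama2 passed the filter only through the P3 libraries and so could be tested only because it was higher there. Nid1, which links laminin to collagen IV, rose by 1.15 on the log2 scale. Of 10 network and other non-fibrillar collagens 3 were higher and 3 lower, with the rises at 1 when P3 replicate 1 or P9 replicate 2 was left out. Col18a1 rose from 3.22 ± 0.376 FPKM to 24.6 ± 10.5, and Col8a2 fell by 1.72 on the log2 scale. Col6a1, a chain of the beaded collagen VI, went from 655 ± 11.9 FPKM to 421 ± 49.5 (log2 fold change -0.64, adjusted p = 0.00777). Of 19 elastic fibre genes 6 were higher and 3 lower (median log2 fold change 0.13). The microfibril proteins Mfap5, Fbln2 and Fbn1 rose by 1.28, 1.07 and 1.05 on the log2 scale, Lox, the crosslinking enzyme, fell from 1011 ± 56.9 FPKM to 353 ± 52.2, and its relative Loxl4 rose from 1.17 ± 0.138 FPKM to 5.6 ± 0.659. Loxl4 was not called in the 9-library fit (adjusted p = 0.0641).

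Of 18 collagen folding and modifying enzymes 6 were lower and none higher (median log2 fold change -0.29). The falls numbered 2 when P3 replicate 1 was left out and 3 when P3 replicate 2 or P9 replicate 2 was left out. Plod2, which makes the hydroxylysine used in crosslinks, went from 559 ± 23.6 FPKM to 233 ± 27.1 (log2 fold change -1.27, adjusted p = 0.000701), and Adamts2, which trims procollagen, fell by 0.85 on the log2 scale. Serpinh1, the collagen chaperone, was at 1168 ± 27.5 at P3 against 979 ± 230.4 FPKM at P9 and was not called (adjusted p = 0.320). Of 26 matrix proteases 11 were lower and 4 higher (median log2 fold change -0.21), with the falls at 6 when P3 replicate 1 or 3 was left out. Mmp23 and Mmp3 fell, with log2 fold changes of -2.05 and -2.61, and Adam19 and Htra1 rose by 1.83 and 0.81 on the log2 scale; Adam19 was at 23.2, 27.3 and 21 in the P3 libraries against 95.2, 93.0 and 74.6 FPKM at P9.

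**Figure D4:**
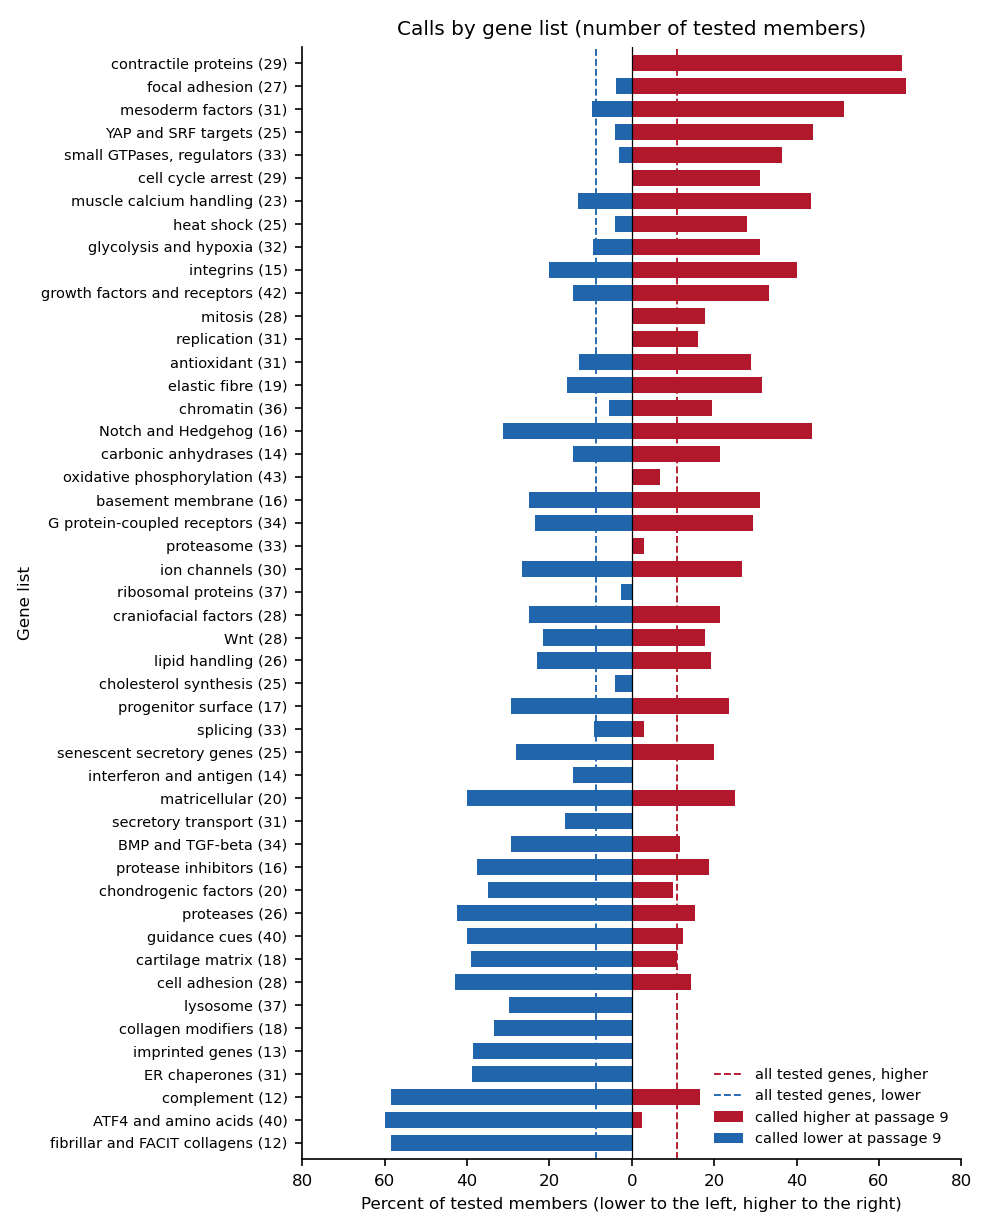
Bars give the percent of tested members called lower (blue, to the left) and higher (red, to the right) at P9 in each gene list with at least 12 tested members, and dashed lines give the same for all tested genes (8.76% and 11.1%). Contractile and focal adhesion genes stand at the top, fibrillar collagens and ATF4 genes at the bottom, and ribosomal, proteasome and cholesterol genes show few calls.

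Falls outnumbered rises among transcription factors of bone and cartilage, and rises outnumbered falls among those of other mesenchyme. Of 20 chondrogenic and osteogenic factors 7 were lower and 2 higher (median log2 fold change -0.24). Sp7, Sox6, a partner of Sox9, Mkx, a tendon factor, and Runx3 fell, with log2 fold changes of -3.17, -1.52, -1.51 and -1.44. Runx2, the early osteoblast factor, was at 13.4, 13.5 and 12.6 in the P3 libraries against 8.75, 8.29 and 7.80 FPKM at P9 (log2 fold change -0.61, adjusted p = 0.00373). Sox11 rose from 2.41 ± 0.902 FPKM to 10.3 ± 1.66 (log2 fold change 1.75, adjusted p = 0.00193).

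Of 31 other mesenchymal and muscle patterning factors 16 were higher and 3 lower (median log2 fold change 0.47); of the rises 12 held without each library in turn and 10 under all 12 alternative fits. Foxs1, a forkhead factor, was at 5.38, 5.67 and 5.24 in the P3 libraries against 24.6, 36.7 and 24 FPKM at P9 (log2 fold change 2.17, adjusted p = 0.000502). Gata6 and Gata2, zinc finger factors, rose from means of 0.612 ± 0.346 and 0.749 ± 0.378 to 5.13 ± 0.304 and 5.18 ± 0.767 FPKM. Nr2f2, Id3 and Tbx18 rose by 1.26, 1.24 and 0.85 on the log2 scale, and Myocd, the SRF cofactor of smooth muscle, by 1.0. Klf4, a zinc finger factor, was the largest fall of the list, at 79.1, 72.9 and 88.8 in the P3 libraries against 10.6, 14.5 and 20.3 FPKM at P9 (log2 fold change -2.37, adjusted p = 0.000780). Myocd was not called in the 9-library fit (adjusted p = 0.165).

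Craniofacial factors went both ways, 6 higher and 7 lower of 28 (median log2 fold change -0.20). Their rises numbered 2 when P3 replicate 1 or 3 or P9 replicate 2 was left out and 3 when P9 replicate 3 was left out, and their falls 4 when P3 replicate 1 was left out. Gsc, goosecoid, was at 9.77, 7.33 and 8.78 in the P3 libraries against 0.317, 0.396 and 0.802 FPKM at P9 (log2 fold change -2.68, adjusted p = 0.000314) and Pax9, a factor of jaw and tooth, fell by 1.26 on the log2 scale. Gsc passed the filter only through the P3 libraries and so could be tested only because it was higher there. Msx1, also a factor of jaw and tooth, rose by 1.4 on the log2 scale and Meis2 by 1.35. The abundant factors Prrx1 and Twist1 were at 207 ± 11.9 at P3 against 172 ± 29.2 FPKM at P9 and at 41.8 ± 2.74 at P3 against 40.9 ± 13.8 FPKM at P9, neither called (adjusted p = 0.207 and 0.838). Hox genes, which mark position in trunk and limbs and are normally silent in the face, were near 0: 37 of 39 stayed below the filter. The other two, Hoxc13 and Hoxd8, rose, from 0.358 ± 0.328 to 2.09 ± 0.294 FPKM and from 0.684 ± 0.178 to 1.94 ± 0.189 FPKM. Both were below 1 FPKM in every P3 library and passed the filter through the P9 libraries, so they could be tested only because they were higher there. Pax9 was not called in the 9-library fit (adjusted p = 0.0817).

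Of 13 tested imprinted genes 5 were lower and none higher (median log2 fold change -0.45). Plagl1, a zinc finger factor, was at 7.95, 7.47 and 9.60 in the P3 libraries against 1.26, 1.41 and 1.44 FPKM at P9 (log2 fold change -1.97, adjusted p = 0.000314). Ndn, necdin, a growth suppressor, and Peg3 fell, with log2 fold changes of -1.12 and -0.80, beside Igf2 and Dcn above. Of the 8 not called, Grb10 was at 108 ± 7.22 at P3 against 83.7 ± 10.4 FPKM at P9 and Igf2r, the receptor that clears Igf2, at 68.7 ± 1.59 at P3 against 102 ± 22.8 FPKM at P9.

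**Figure D5:**
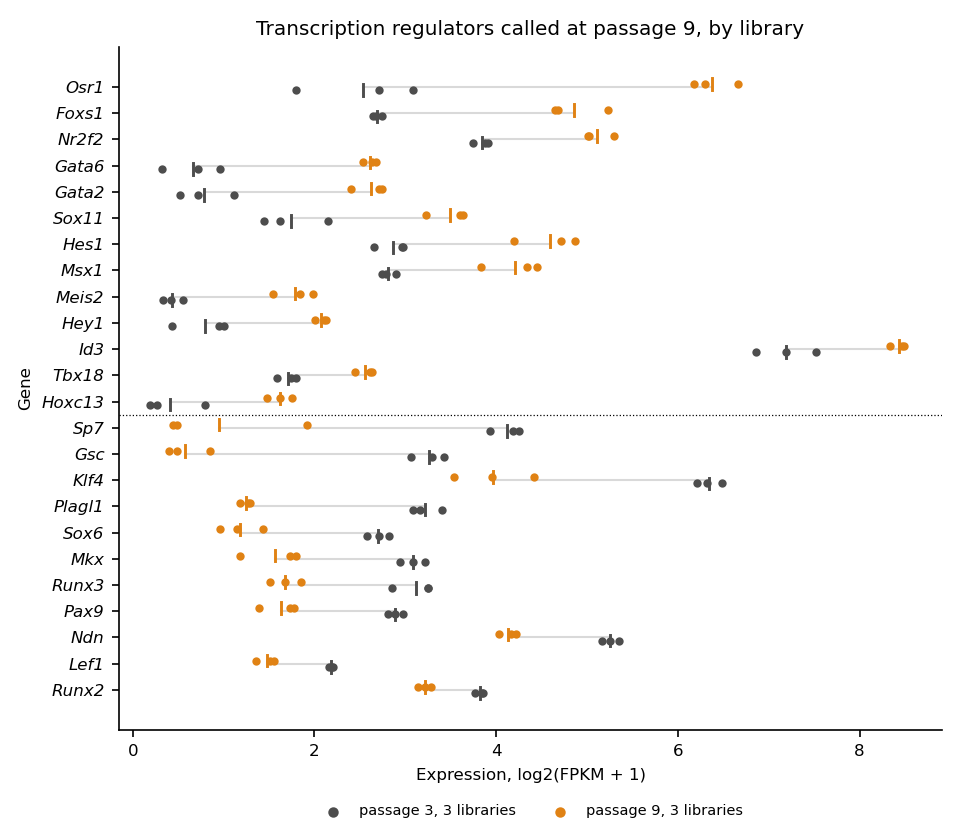
Each row is 1 transcription regulator chosen from the called members of the lists, and each point is 1 library on a log2(FPKM + 1) axis, grey for P3 and orange for P9, with a vertical tick at the mean of 3 libraries. The 13 above the dotted line rose and the 11 below it fell, and the groups overlap in none.

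Among secreted ligands and their receptors the changes were mixed. Of 42 ligands and receptors of the growth factor families 14 were higher and 6 lower (median log2 fold change 0.25). The rises numbered 6 when P3 replicate 1 was left out and 9 when P9 replicate 2 was left out. Fgf7, a ligand for epithelium, was at 223, 227 and 238 in the P3 libraries against 25.1, 28.5 and 57.2 FPKM at P9 (log2 fold change -2.70, adjusted p = 0.00132), falling beside Fgfr1. Igfbp4, which binds insulin-like growth factors, went from 40.6 ± 11.5 FPKM to 5.55 ± 2.70 (log2 fold change -2.70, adjusted p = 0.00194). Pdgfc, Bdnf and the vascular endothelial growth factor receptors Flt1 and Flt4 rose by 1.48, 1.70, 2.08 and 1.72 on the log2 scale.

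Of 34 genes of the TGF-beta and BMP pathway 10 were lower and 4 higher (median log2 fold change -0.17). The falls numbered 3 when P3 replicate 1 or 3 or P9 replicate 2 was left out and 5 when P3 replicate 2 was left out, and the rises 2 when P3 replicate 1 or P9 replicate 3 was left out. Tgfb2 was at 44.5, 48.2 and 42 in the P3 libraries against 155, 129 and 127 FPKM at P9 and Tgfb3 rose by 0.90 on the log2 scale, while Tgfbr2, their signalling receptor, fell from 59.9 ± 2.77 FPKM to 35.9 ± 1.96. The BMP antagonists Chrd and Grem1 fell, with log2 fold changes of -1.71 and -0.94. In the Wnt pathway 5 genes were higher and 6 lower of 28 (median log2 fold change -0.16). Rspo1 alone of the rises held without each library in turn (the rises numbered 1 when P3 replicate 1 or 3 or P9 replicate 2 was left out and 3 when P3 replicate 2 or P9 replicate 1 or 3 was left out). The ligands Wnt10b and Wnt9a fell, with log2 fold changes of -1.84 and -1.17. Tgfb3 was not called in the 9-library fit (adjusted p = 0.0565).

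Of 16 genes of the Notch and Hedgehog pathways 7 were higher and 5 lower (median log2 fold change 0.10), with the falls at 3 when P3 replicate 1 or 3 was left out. Jag1, a Notch ligand, was at 9.48, 10.5 and 7.86 in the P3 libraries against 58.4, 47.1 and 33.1 FPKM at P9 (log2 fold change 2.17, adjusted p = 0.000941). Lfng, which modifies Notch, and the Notch targets Hes1 and Hey1 rose by 1.37, 1.73 and 1.28 on the log2 scale. Notch3 rose from 0.330 ± 0.0918 to 2.12 ± 0.800 FPKM and Notch2 fell from 55.6 ± 1.95 FPKM to 32.4 ± 2.09. Notch3 passed the filter only through the P9 libraries and so could be tested only because it was higher there. Boc and Cdon, coreceptors of Hedgehog ligands, fell, with log2 fold changes of -0.77 and -0.74. Cdon and Hes1 were not called in the 9-library fit (adjusted p = 0.127 and 0.119).

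Of 40 axon guidance genes 16 were lower and 5 higher (median log2 fold change -0.16). The falls here numbered 9 when P3 replicate 1 was left out, and the rises 3 when P3 replicate 1 or 3 was left out and 2 when P9 replicate 2 was left out. Sema3c, a secreted semaphorin, was at 139, 159 and 131 in the P3 libraries against 40.1, 30.2 and 44 FPKM at P9 (log2 fold change -1.89, adjusted p = 0.000595). Sema3a, Sema5a and Robo1, a Slit receptor, fell, with log2 fold changes of -2.05, -1.36 and -1.5, and Sema3f rose by 0.99 on the log2 scale. Of 28 adhesion molecules 12 were lower and 4 higher, median log2 fold change -0.19, and 9 of the falls held without each library in turn (the rises numbered 2 when P3 replicate 1 or 3 or P9 replicate 2 was left out). Dchs1, a large cadherin of planar polarity, was at 13.1, 11.4 and 13.8 in the P3 libraries against 2.32, 1.91 and 2.74 FPKM at P9 (log2 fold change -2.05, adjusted p = 0.000331), and the protocadherins Pcdh20, Pcdh9 and Pcdh19 fell, with log2 fold changes of -1.93, -1.48 and -0.92. Cdh2, N-cadherin, rose by 1.05 on the log2 scale.

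Tenm4, a teneurin of the cell surface, fell from 2.0 ± 0.188 FPKM to 0.459 ± 0.0228 (log2 fold change -1.04, adjusted p = 0.00267). It passed the filter only through the P3 libraries and so could be tested only because it was higher there. The deposited annotation (Rnor_6.0) gives Tenm4 at chromosome 1, 161401527 to 161880923, plus strand. The row of Mir708, an 88-base hairpin on the same strand at 161221246 to 161221333, held 2.25, 0 and 0 FPKM in P3 and 0 in every P9 library, and libraries of polyadenylated RNA do not measure a mature microRNA. The mature sequence in RefSeq is shown because the series is titled after it, with the seed, bases 2 to 8, in capitals.
rno-miR-708-5p: aAGGAGCUuacaaucuagcuggg

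Of 34 G protein-coupled receptors 10 were higher and 8 lower (median log2 fold change 0.07). Their rises numbered 3 when P3 replicate 1 was left out, 6 when P3 replicate 2 or P9 replicate 1 was left out, 5 when P3 replicate 3 was left out and 4 when P9 replicate 2 was left out, and their falls 5 when P3 replicate 1 was left out. Agtr1a, the angiotensin II receptor, was at 0.454, 0.365 and 0.341 in the P3 libraries against 4.84, 4.30 and 2.83 FPKM at P9 (log2 fold change 1.83, adjusted p = 0.00113), and Adgrl2, a latrophilin, rose by 1.74 on the log2 scale. Agtr1a passed the filter only through the P9 libraries, so it could be tested only because it was higher there. Pth1r, the parathyroid hormone receptor of growing cartilage and bone, was at 6.32, 6.70 and 8.23 in the P3 libraries against 1.86, 1.63 and 2.41 FPKM at P9 (log2 fold change -1.45, adjusted p = 0.00113). The bradykinin receptors Bdkrb1 and Bdkrb2 and the prostaglandin receptor Ptger4 fell, with log2 fold changes of -1.5, -1.34 and -1.45. Of 30 ion channel genes 8 were higher and 8 lower. Kcnk2, a potassium channel gated by stretch, was at 2.36, 3.15 and 2.59 in the P3 libraries against 17, 15.6 and 12.6 FPKM at P9 (log2 fold change 2.12, adjusted p = 0.000366), and Piezo1, a cation channel gated by stretch, went from 103 ± 3.37 FPKM to 63.8 ± 5.91 (log2 fold change -0.69, adjusted p = 0.00344). Of 17 progenitor surface markers 4 were higher and 5 lower, the latter 3 when P3 replicate 1 or 3 was left out. Mcam and Cd200 rose by 1.3 and 2.34 on the log2 scale, Eng and Anpep fell, with log2 fold changes of -1.01 and -1.80, and Thy1, the most abundant of them, was at 890.4 ± 63.1 at P3 against 1009 ± 187 FPKM at P9 (adjusted p = 0.495).

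The amino acid response was the metabolic group with the most falls. Atf4 is the factor that raises amino acid transport and synthesis under stress, and of 40 of its targets, transporters and tRNA synthetases 24 were lower and 1 higher (Vldlr, adjusted p = 0.0307, but 0.103 without P3 replicate 1, 0.0579 without P3 replicate 2, 0.102 without P3 replicate 3 and 0.0882 without P9 replicate 2), with a median log2 fold change of -0.40. The falls numbered 14 when P3 replicate 1 was left out and 15 when P3 replicate 3 was left out, and 10 held under all 12 alternative fits. Stc2, a secreted stanniocalcin, was at 14.4, 14.7 and 14.8 in the P3 libraries against 1.18, 0.927 and 2.66 FPKM at P9 (log2 fold change -2.65, adjusted p = 0.000703). Trib3, a pseudokinase that restrains Atf4, was at 63.5, 69.8 and 56.3 in the P3 libraries against 19.2, 23.8 and 21.6 FPKM at P9 (log2 fold change -1.51, adjusted p = 0.000534). The transporter genes Slc7a5, Slc1a5, Slc3a2 and Slc7a11 fell, with log2 fold changes of -1.3, -1.09, -0.66 and -0.92. Pck2 and Aldh1l2, mitochondrial enzymes, fell, with log2 fold changes of -0.93 and -0.90. Atf4 itself was at 250.3 ± 2.80 at P3 against 165 ± 31.1 FPKM at P9, with an adjusted p of 0.0264, but 0.0958 without P3 replicate 1, 0.0798 without P3 replicate 2 and 0.0811 without P3 replicate 3. Asns, asparagine synthetase, was at 67.3 ± 3.32 at P3 against 53.2 ± 5.56 FPKM at P9 and was not called (adjusted p = 0.0596). Atf4 and Vldlr were not called in the 9-library fit (adjusted p = 0.0883 and 0.0869).

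The ATF4 element TGATGNAA was searched in the same 250 bases on both strands. It was present in 3.21% of all promoters, 1.68% of those of tested genes, 3.45% (24 of 695) of those of genes called lower and 2.03% (18 of 887) of those called higher. It was present in 26.1% (6 of 23) of those of tested list members, and Slc7a1 and Slc38a1, which have it, were not called. The other 4 are among the 15 called lower, and 100 bases of each are shown because they carry the element of this group. The match is in capitals and lies on the strand opposite to the gene in all 4, so the letters are its reverse complement.
Trib3 (chr3:161275534-161275633, minus strand): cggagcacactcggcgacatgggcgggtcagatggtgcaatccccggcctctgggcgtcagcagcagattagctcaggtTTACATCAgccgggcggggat
Chac1 (chr3:126795918-126796017, plus strand): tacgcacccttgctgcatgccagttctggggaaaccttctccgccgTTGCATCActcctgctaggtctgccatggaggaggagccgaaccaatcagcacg
Pck2 (chr15:32997603-32997702, plus strand): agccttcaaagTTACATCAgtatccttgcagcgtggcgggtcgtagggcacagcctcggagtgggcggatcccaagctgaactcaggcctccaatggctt
Slc1a4 (chr14:98761713-98761812, minus strand): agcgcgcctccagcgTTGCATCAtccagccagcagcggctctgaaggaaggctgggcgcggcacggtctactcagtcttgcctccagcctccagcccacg

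The match began 21 bases before the start in Trib3, 167 in Chac1, 239 in Pck2 and 235 in Slc1a4. Chac1, which degrades glutathione, fell by 0.76 on the log2 scale and was at 33.1, 34 and 32.6 in the P3 libraries against 16.6, 22.2 and 19.1 FPKM at P9. Slc1a4, a transporter of neutral amino acids, was at 101 ± 11 at P3 against 70.4 ± 6.34 FPKM at P9 (adjusted p = 0.0215, but 0.0949 without P3 replicate 1, 0.0749 without P3 replicate 2, 0.0742 without P9 replicate 2 and 0.0540 without P9 replicate 3). Chac1 and Slc1a4 were not called in the 9-library fit (adjusted p = 0.552 and 0.0565).

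Chaperones and stress factors of the endoplasmic reticulum were also lower in part. Of 31 members 12 were lower and none higher (median log2 fold change -0.36), and the falls numbered 7 when P3 replicate 1 was left out and 18 without P9 replicate 1. Hspa5, the chaperone BiP, was at 569.6, 541 and 584 in the P3 libraries against 372, 323 and 294 FPKM at P9 (log2 fold change -0.78, adjusted p = 0.00397), and the stress factors Ddit3, Xbp1 and Atf6 fell, with log2 fold changes of -1.17, -0.57 and -0.68. Of 37 lysosome genes 11 were lower and none higher (median log2 fold change -0.19), with the falls at 4 when P3 replicate 1 was left out and 5 when P3 replicate 3 was left out. The cathepsin genes Ctsh and Ctsz fell, with log2 fold changes of -1.35 and -1.95, and Ctsl was at 441 ± 29.4 at P3 against 544 ± 26.2 FPKM at P9 (adjusted p = 0.0683). Ddit3 was not called in the 9-library fit (adjusted p = 0.119).

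Of 31 antioxidant genes 9 were higher and 4 lower (median log2 fold change 0.24), and the rises numbered 4 when P3 replicate 1 or 3 was left out and 3 when P9 replicate 2 was left out. Hmox1, which degrades heme, was at 449.8, 622 and 331 in the P3 libraries against 45.5, 58.5 and 136 FPKM at P9 (log2 fold change -2.65, adjusted p = 0.00564), Gpx3, a secreted peroxidase, went from 617 ± 52.8 FPKM to 176 ± 61.3 (log2 fold change -1.85, adjusted p = 0.00217), and the metallothionein gene Mt2A fell by 1.90 on the log2 scale. Gpx1, the cytosolic peroxidase, and Txn1, thioredoxin, rose by 0.82 and 0.62 on the log2 scale. Of 32 genes of glycolysis and hypoxia 10 were higher and 3 lower (median log2 fold change 0.08), with the rises at 4 when P3 replicate 1, 2 or 3 was left out and 5 when P9 replicate 2 was left out. Pfkm, a phosphofructokinase, and Ldhb, a lactate dehydrogenase chain, rose by 0.72 and 0.80 on the log2 scale. Slc16a3, which exports lactate, rose from 3.22 ± 1.09 FPKM to 13.9 ± 4.35 and Slc16a1, which carries lactate both ways, fell from 36.7 ± 1.88 FPKM to 19.9 ± 1.59. Car9, a carbonic anhydrase of the cell surface known as a hypoxia target, was at 2.72, 4.25 and 2.13 in the P3 libraries against 53, 51.4 and 43.3 FPKM at P9, while the hypoxia targets Vegfa and Pdk1 were at 53.7 ± 6.77 at P3 against 45.6 ± 6.05 FPKM at P9 and at 10.2 ± 1.68 at P3 against 8.34 ± 1.57 FPKM at P9, neither called (adjusted p = 0.272 and 0.312), and Ndrg1, another, fell by 1.04 on the log2 scale. Gpx1, Ldhb and Slc16a3 were not called in the 9-library fit (adjusted p = 0.251, 0.184 and 0.144).

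The core machinery of the cell showed few calls. Of 37 ribosomal protein genes 1 was lower and none higher, and 26 had an interval within 1.5-fold. Of 33 proteasome genes 1 was higher and 30 stayed within 1.5-fold. Of 43 nuclear genes of oxidative phosphorylation 3 were higher (Uqcrq, Cox6c and Sdhc, none of them without each library in turn; 0 without P3 replicate 1), and 32 stayed within 1.5-fold. The rises left without P3 replicate 2, P3 replicate 3 or P9 replicate 2 numbered 1. Rps12, Psmb7 and Srebf1, the single calls of the ribosomal, proteasome and cholesterol lists, were at log2 fold changes of -0.34, 0.40 and -0.66, and none held without each library. Only 3 of 25 cholesterol genes had an interval within 1.5-fold, so few calls there do not bound the changes. Psmb7, Rps12 and Sdhc were not called in the 9-library fit (adjusted p = 0.0754, 0.147 and 0.126).

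No tested gene of mitosis or replication was called lower. Mki67, a marker of dividing cells, was at 13.5, 13.7 and 12.4 in the P3 libraries against 13.2, 12.3 and 12.6 FPKM at P9 (95% interval of the log2 fold change -0.25 to 0.15). Of 28 mitosis genes 5 were higher (17.9%, against 11.1% of all tested genes) and none lower. None of the rises held without each library in turn (the rises numbered 0 when P3 replicate 1 or 3 was left out, 1 when P9 replicate 2 was left out and 3 when P9 replicate 3 was left out). Of 31 replication genes 5 were higher (16.1%, against the same 11.1%) and none lower. The rises numbered 3 when P3 replicate 1, 2 or 3 or P9 replicate 2 was left out. Tyms, which makes thymidylate, went from 5.85 ± 0.453 FPKM to 13.4 ± 0.925 (log2 fold change 1.08, adjusted p = 0.000780), and Uhrf1 and Pole rose by 0.71 and 0.78 on the log2 scale. Cdkn2a, which encodes the inhibitor p16, was at 6.65, 7.77 and 6.22 in the P3 libraries against 12.7, 13.8 and 12.4 FPKM at P9 (log2 fold change 0.83, adjusted p = 0.00242), and Cdkn2b was at 18.5, 20.2 and 17.5 in the P3 libraries against 15.2, 13.6 and 16.7 FPKM at P9 (adjusted p = 0.0971). Cdkn1a, which encodes p21, was at 79.7, 96.7 and 64.4 in the P3 libraries against 115, 139 and 151 FPKM at P9 (adjusted p = 0.0224, but 0.0787 without P3 replicate 1, 0.0636 without P3 replicate 3, 0.0737 without P9 replicate 2 and 0.0611 without P9 replicate 3). Mdm2 and Ccnd1, cyclin D1, rose by 0.92 and 0.72 on the log2 scale. Lmnb1, the lamin whose loss is a common sign of senescence, was at 18.4, 17.3 and 16.1 in the P3 libraries against 20.8, 23.3 and 22.2 FPKM at P9 (log2 fold change 0.33, adjusted p = 0.0393, but 0.0917 without P3 replicate 1, 0.107 without P3 replicate 2, 0.140 without P3 replicate 3, 0.118 without P9 replicate 2 and 0.0800 without P9 replicate 3). Tyms, Uhrf1, Pole, Cdkn1a, Mdm2 and Lmnb1 were not called in the 9-library fit (adjusted p = 0.0571, 0.332, 0.151, 0.360, 0.386 and 0.738).

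Secreted factors linked to senescence went both ways, 5 higher and 7 lower of 25 (median log2 fold change -0.18), with the rises at 3 when P3 replicate 1 or P9 replicate 2 was left out. Il15, a cytokine of lymphocytes, was at 6.76, 8.01 and 9.42 in the P3 libraries against 39.3, 47.7 and 40.2 FPKM at P9 (log2 fold change 2.27, adjusted p = 0.000314). The chemokine genes Cxcl1 and Ccl20 fell, with log2 fold changes of -2.31 and -2.26. Of 12 complement genes 7 were lower and 2 higher (median log2 fold change -0.70), and the falls numbered 4 when P3 replicate 1, 2 or 3 was left out. The component C1s went from 13.2 ± 7.59 FPKM to 1.69 ± 0.275 (log2 fold change -2.23, adjusted p = 0.010). Of the membrane regulators Cd55 fell by 1.89 on the log2 scale and Cd59 rose by 1.47 on the log2 scale.

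Markers of other cell types were measured beside these groups. Of mural cell markers, those of pericytes and vascular smooth muscle, 5 of 6 tested were higher: Myh11, Lmod1, Pln, Mcam and Notch3. All 5 are given above in other groups, and Myh11 and Lmod1 among the contractile genes, so these results share members. The 12 measured summed to 123 to 163 FPKM in P3 and 303 to 406 FPKM in P9, with the pericyte markers Rgs5 and Kcnj8 at 0 in all 6 libraries and Des, desmin, at 1.29 ± 1.06 at P3 against 0.552 ± 0.212 FPKM at P9. The part of mural cells in the contractile result was not tested. Skeletal muscle markers summed to 9.11 to 19.5 FPKM in P3 and 44.5 to 51.5 FPKM in P9, mostly Acta1, with Myog and Pax7 at 0. Myh1, a myosin of fast muscle, rose from 0.288 ± 0.0597 to 4.13 ± 1.01 FPKM, and it passed the filter only through the P9 libraries. Tendon and synovial markers summed to 2231 to 2508 FPKM in P3 and 1092 to 1498 FPKM in P9, with 3 of 7 tested lower (Cd55, Fmod and Mkx). Fmod alone went from a mean of 1121 to 72.4 FPKM, which accounts for the fall of the sum. Another 3 of the 7 had an interval within 1.5-fold, and Thy1, also of this list, was not called. Osteoblast markers summed to 10101 to 10906 FPKM in P3 and 5538 to 5870.4 FPKM in P9. Most of the sum was Col1a1, with a mean of 9777 FPKM in P3 and 4805 FPKM in P9. The sum therefore does not speak for the other markers. Of 5 tested 4 were lower: Alpl, alkaline phosphatase, at 51.2, 60.4 and 40.8 in the P3 libraries against 8.67, 12.7 and 14 FPKM at P9, Sp7, Col1a1 and Runx2. Alpl was not called in the 9-library fit (adjusted p = 0.0701).

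Markers of blood and vessel lining were low at both passages. Leukocyte markers summed to 9.83 to 11.8 FPKM in P3 and 5.43 to 5.75 FPKM in P9, nearly all of it Cd14, a receptor for bacterial lipids (log2 fold change -0.83, adjusted p = 0.00148), and Aif1, Tyrobp, C1qa and Cd3e were at 0. Endothelial markers summed to 13.3 FPKM in every P3 library and 7.17 to 13.3 FPKM in P9, with Cdh5, Tie1, Emcn and Cldn5 at 0 and Egfl7 the only one tested. Erythroid markers stayed at or under 0.290 FPKM in sum. Of neuronal and glial markers Stmn2 rose, Tubb3, a neuronal tubulin, fell by 1.46 on the log2 scale, Ngfr fell by 1.36 on the log2 scale and Snap25 was at 0. Cd14 and Tubb3 were not called in the 9-library fit (adjusted p = 0.0768 and 0.0817).

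A few genes had very uneven values within a group, and they are named after their values were seen. Ndufa1, a subunit of the respiratory chain, was at 0.310, 0.341 and 157 in the P3 libraries against 0.344, 1.23 and 1.16 FPKM at P9 (adjusted p = 0.518). Hprt1, often used as a reference gene, was at 18.3, 0 and 0.619 in the P3 libraries against 0.335, 2.40 and 4.61 FPKM at P9 (adjusted p = 0.961), and Selenow at 181, 40.7 and 4.82 in the P3 libraries against 74.7, 354 and 96.4 FPKM at P9 (adjusted p = 0.305). The 5 genes with a symbol nearest below the threshold were Man1a1, Gnptab, AABR07026654.1, AABR07032338.1 and Med1, with adjusted p from 0.0497 to 0.0499 and log2 fold changes from -0.44 to 0.61. The 4 nearest above it were Bag2, Nhej1, Sgms1 and Daam1, with adjusted p from 0.0501 to 0.0503 and log2 fold changes from -0.59 to 0.74. Man1a1, Gnptab, AABR07026654.1, AABR07032338.1 and Med1 were not called in the 9-library fit (adjusted p = 0.0738, 0.0928, 0.0990, 0.517 and 0.318).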

How the data were processed

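Poly-A RNA of 6 of the 9 libraries was compared, 3 of cells at passage 9 (P9) and 3 at passage 3 (P3). Per the submitters' processing notes, reads were aligned with HISAT2 2.0.5 to Rnor_6.0 and counted with featureCounts 1.5.0-p3; strandedness and other settings are not given in the sources used here. The deposited values are FPKM, scaled by the authors to gene length and library size. FPKM times gene length gave whole fragments for 100% of values (tolerance 0.01), 13264930 to 15323790 per library, and voom on these fragments served as an alternative, with 2738 calls.

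Genes that reached 1 FPKM in 3 or more of the 6 libraries were fitted as log2(FPKM + 1) with limma 3.58.1 (R 4.3.3), with a trend in the prior spread, 4 residual and 2.96 prior degrees of freedom. A gene was called at a Benjamini-Hochberg adjusted p under 0.05 over all tested genes, and every adjusted p in the text is of this kind. Intervals are 95% confidence intervals of the same fit, and ± is the SD of 3 libraries. The groups are small, so a single gene's exact permutation test could not go below 0.10 and was not used.

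Named were the 20 highest and 20 lowest changes, the 10 largest gains and losses in FPKM, genes switched on or off, the genes nearest the threshold, a few markers for checking the labels, and up to 5 called members per list. The highest and lowest changes were ranked among called genes with a symbol, a mean of at least 10 FPKM at P3 or P9 and groups that did not overlap. Further members were named after their values were seen. The comparison, the 62 gene lists and the members were chosen with earlier results of these data known. Promoter sequences are from RefSeq (GRCr8) and were matched by symbol; no coordinate was moved between builds. Scripts (Python 3.11.15, NumPy 2.4.6, pandas 2.3.3, matplotlib 3.10.9) were tested on simulated data. Alternatives were all 9 libraries in the fit, a pseudocount of 0.1, other filters, equal summed FPKM, a replicate block, voom, no trend, a minimum fold, and leaving out each library.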

Additional observations from a re-analysis of the deposited data

How the results depend on the processing

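Gene counts were the least stable values. With all 9 libraries in the fit, 1312 genes were called (729 higher, 583 lower), and with a log2 fold change of at least 1 also required, 762 (419 higher, 343 lower); the latter is stricter by construction, and for the former the cause was not tested. Leaving out each library in turn gave 1302 to 2819 calls, 753 to 1522 higher and 549 to 1297 lower, and 5126 to 7107 genes within 1.5-fold. Without a filter 12074 genes lay within 1.5-fold, since many added genes are near 0 in both groups. Voom on the fragments called 2738 genes (1729 higher, 1009 lower). Of 54 lists with at least 5 tested members, 45 had a larger share called than all genes, and 42 to 49 did under the alternatives.

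With a replicate block 1676 genes were called (948 higher, 728 lower). No pairing by the numbers of the labels was seen: deviations of same-numbered libraries correlated at -0.01, -0.02 and -0.05. With 3 libraries per group a weak pairing could be missed.

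The fibrillar collagens' share of summed FPKM fell by 1.99 percentage points (1.90 to 2.10 without each library). As a share of fragments, a setting added after seeing the data, it fell by 5.4 points, a measure that weights long transcripts more. Of 242 called genes named in the text, 50 lost the call under at least 1 alternative (41 with all 9 libraries in the fit, 15 with no filter) and 22 without at least 1 library, and none changed direction. Depth limits genes near 1 FPKM, where log2(FPKM + 1) understates ratios.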
